A study of Mus musculus with 18 samples.

Results

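The oligoadenylate synthetase (OAS) family was followed through 10 mouse genes, Oas1a, Oas1b, Oas1c, Oas1d, Oas1f, Oas1g, Oas2, Oas3, Oasl1 and Oasl2, in mouse embryonic stem cells and in cells differentiated from them, before and after ionizing radiation (IR). Each gene was measured by 1 probe, so the members were 10 of the 37246 probes kept on the array. Probes were assigned through their RefSeq accessions. The family was chosen by the array signals of Oas1d and Oas1f, which moved in different directions at the early and late time after IR in differentiated cells. All values of the members in those comparisons, and the difference of Oas1d and Oas1f between unirradiated cell types, are therefore given as description without a test.

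The study asked how stem cells and isogenic non-stem cells differ in gene expression and in their response to DNA damage. ES cells were early-passage primary mouse embryonic stem cells grown with leukemia inhibitory factor (LIF) on gelatin without feeder cells. ED cells were isogenic cells that differentiated without direction after LIF was withdrawn, for 1 week or until stem cell markers were lost per the labels, so that they are a mixture set by culture rather than a purified cell type. ESRE and EDRE were the same cells 15 min after 10 Gy and ESRL and EDRL were the same cells 4 h after 10 Gy. ES and ED received no IR, and each of the 6 groups had 3 one-color arrays with 1 sample on each. The labels call the samples triplicates without naming separate cultures, so p-values measure the spread between these samples, which may be technical.

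OAS proteins are sensors of double-stranded RNA. When they bind it they join ATP into 2′-5′-linked oligoadenylates (2-5A), second messengers whose downstream effect is the cleavage of cellular and viral RNA. The genes are classic targets of type I interferon, which acts through a transcription factor complex that holds Irf9 on the interferon-stimulated response element (ISRE). Mice carry a large cluster of Oas1 copies, of which Oas1a and Oas1g encode active enzymes and several others, Oas1b, Oas1c and Oas1d among them, encode proteins without known synthetase activity. Oas1d is known from oocytes. Oas2 and Oas3 hold repeated OAS units, Oasl2 is an active synthetase with ubiquitin-like domains, and Oasl1 is an inactive member known to restrain Irf7 translation. Pluripotent cells are known for a weak interferon response.

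In the RefSeq annotation of GRCm38.p6 all family genes lie on chromosome 5, in 2 clusters. Oasl2 and Oasl1 stand together, and the other cluster runs Oas2, Oas3, Oas1e, Oas1c, Oas1b, Oas1f, Oas1h, Oas1g, Oas1a and Oas1d. Oas1b is annotated there as a transcribed pseudogene. Oas1e and Oas1h, which are not among the 10 members, were also on the array and are described beside them. RefSeq promoter windows were found for 7 of the 10 members, not for Oas1b, Oas1d and Oas2. The 250 bases before the start site were searched on both strands for the ISRE core, here GAAA repeated after any 2 bases, which 2.98% of 32851 promoter windows of that length hold. Oas1a, Oas1c, Oas1g and Oas3 held it and Oas1f, Oasl1 and Oasl2 did not. The interferon-gamma activated site, here TTC and GAA around any 3 bases, found in 7.02% of the windows, matched only in Oas1a among the 7, 98 to 90 bases before the start, and did not overlap the ISRE core. The windows with the ISRE core are shown with the core in capitals, and that of Oas1f is shown beside them as the one window at hand of the 2 genes by which the family was chosen. They read 5′ to 3′ along the gene. Their positions in GRCm38.p6 are chr5:120907526-120907775 on the minus strand for Oas1a, chr5:120887614-120887863 on the minus strand for Oas1g, chr5:120777660-120777909 on the minus strand for Oas3, chr5:120812515-120812764 on the minus strand for Oas1c, and chr5:120847117-120847366 on the plus strand for Oas1f.
Oas1a: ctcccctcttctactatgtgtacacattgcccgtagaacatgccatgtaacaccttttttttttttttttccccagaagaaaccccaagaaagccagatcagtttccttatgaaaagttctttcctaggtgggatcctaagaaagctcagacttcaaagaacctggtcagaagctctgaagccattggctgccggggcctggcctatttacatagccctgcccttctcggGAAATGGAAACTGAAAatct
Oas1g: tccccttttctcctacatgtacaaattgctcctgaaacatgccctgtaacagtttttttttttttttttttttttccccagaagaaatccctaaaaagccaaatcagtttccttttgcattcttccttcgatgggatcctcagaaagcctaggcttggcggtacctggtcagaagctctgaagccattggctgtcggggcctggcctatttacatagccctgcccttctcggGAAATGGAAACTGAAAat
Oas3: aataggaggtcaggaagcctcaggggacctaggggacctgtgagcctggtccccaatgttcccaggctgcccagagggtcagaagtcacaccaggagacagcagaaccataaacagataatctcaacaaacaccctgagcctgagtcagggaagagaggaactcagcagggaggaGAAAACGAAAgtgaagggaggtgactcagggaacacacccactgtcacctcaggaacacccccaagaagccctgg
Oas1c: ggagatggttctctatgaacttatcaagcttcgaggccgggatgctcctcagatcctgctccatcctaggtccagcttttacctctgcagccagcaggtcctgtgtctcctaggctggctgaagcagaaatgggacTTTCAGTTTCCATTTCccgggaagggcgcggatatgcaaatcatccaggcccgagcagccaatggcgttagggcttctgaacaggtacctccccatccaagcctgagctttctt
Oas1f: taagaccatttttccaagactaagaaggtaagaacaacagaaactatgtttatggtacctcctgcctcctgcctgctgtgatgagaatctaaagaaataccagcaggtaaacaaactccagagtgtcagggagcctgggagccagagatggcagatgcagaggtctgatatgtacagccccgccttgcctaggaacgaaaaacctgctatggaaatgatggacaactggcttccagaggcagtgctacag
In Oas1a and Oas1g the core occurred as 2 overlapping copies next to the start, whose outer ends lie 20 and 5 bases before it in Oas1a and 18 and 3 bases before it in Oas1g. Oas1c held 2 overlapping copies between 114 and 99 bases before the start, and Oas3 held 1 copy from 75 to 66 bases before it. A match of letters is a description and not a binding site.

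Values are log2 signals minus the log2 of each array's own 75th percentile signal. Levels are not compared between probes. Across 15 of the arrays the 75th percentile lay between 2806.1 and 4268.3 signal units and 70.7% to 86.1% of the probes were well above background. Replicates 2 and 3 of EDRE stood apart, with 75th percentiles of 875.0 and 1154.5, with 49.5% and 55.5% of the probes well above background, and with 24.4% and 23.8% of the spots marked as outliers by the scanner software. Replicate 1 of ESRL was also dimmer (1952.3 and 63.3%). Of the 180 member spots 13 were marked as outliers, 9 of them of Oas1d, and were left out, and none was saturated. The summed signal of 9 pluripotency markers lay between 9.03 and 9.05 in ES and between 4.13 and 4.53 in ED (log2). The ED sum was mostly signal of Klf4 and Sox2, with means of 3.89 and 2.32 in ED. Klf4 was not called between ED and ES (0.05 ± 0.23, SE), while the 7 other tested markers were called lower in ED. The 4 blood and macrophage markers on the array summed to between -7.16 and -6.20 in ED, where at most 1 of them was well above background on an array, against 0.10 to 0.23 in ES. Most other marker sums moved with the cell type as well. That of 6 fibroblast markers was 8.67 to 9.03 in ED against 4.97 to 5.05 in ES, with 5 of 6 called higher in ED and Thy1 lower, where it was not well above background. The sum of 4 trophoblast markers was lower in ED (-2.74 to -2.45 against 6.86 to 6.87 in ES). So were those of 4 endothelial markers (-3.65 to -3.52 against 2.33 to 2.65) and of the endoderm and the oocyte and germ cell markers. All 4 trophoblast and all 3 tested endothelial genes were called. Cdx2, Eomes, Krt18, Foxa2, Nobox and the pluripotency marker Tdgf1 passed the filter only through the ES arrays, where they were higher. The direction of these genes is therefore given as description. The sum of 3 neural markers overlapped between the groups, at 2.12 to 2.58 in ED and 1.94 to 2.24 in ES. The part of these cell types in the differences of the members was not tested. Bulk samples cannot tell fewer cells of a type from less RNA per cell. Probe sequences were not used here, so whether the probe of one Oas1 copy also binds RNA of another was not tested.

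**Figure D1:**
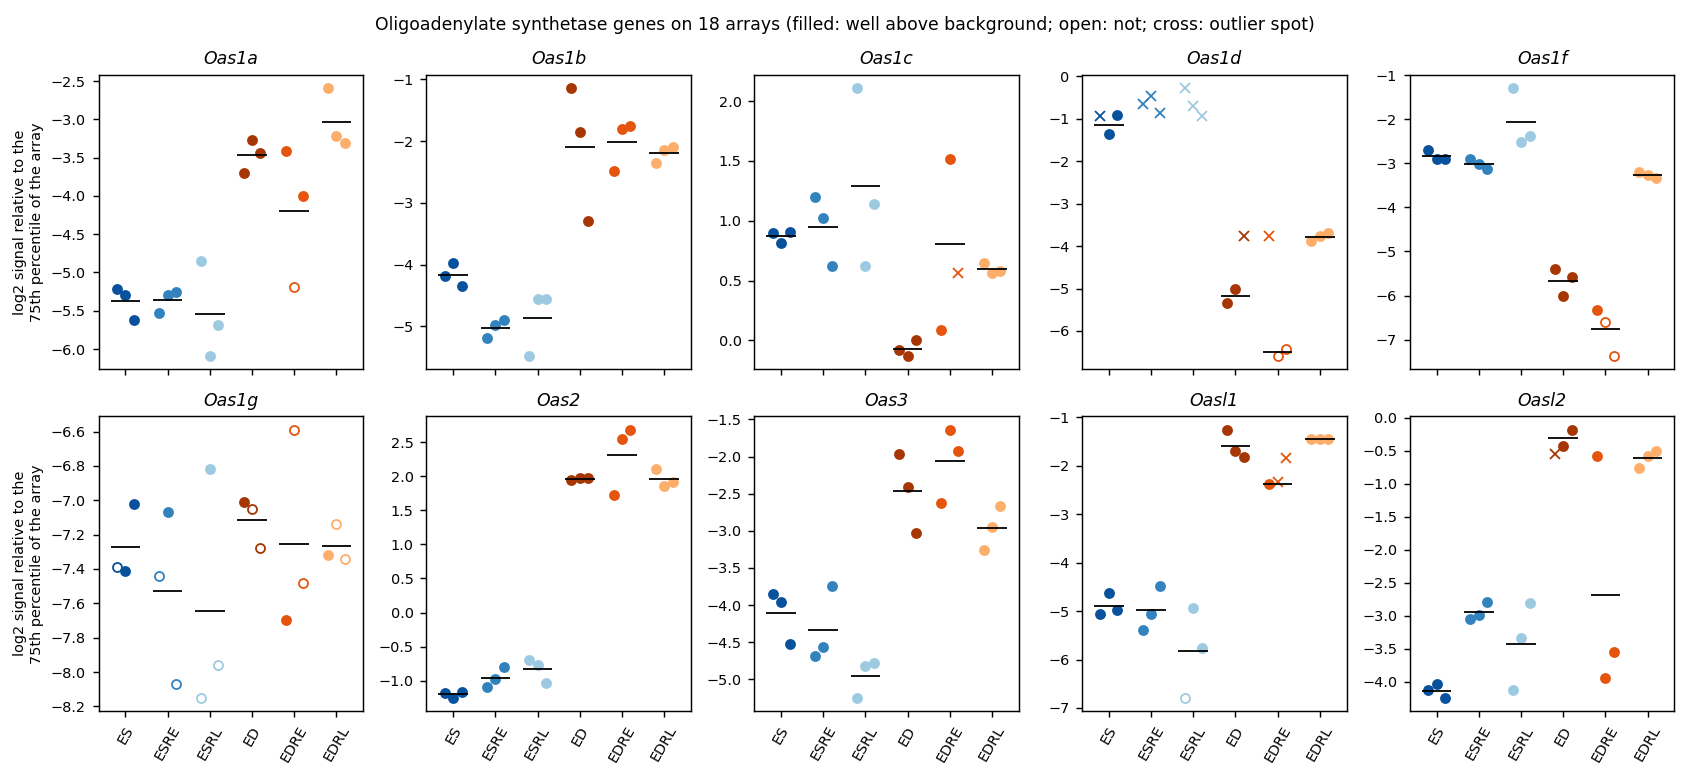
Log2 signal above the array's 75th percentile signal (y axis) for the 10 members in the 6 groups (x axis), 1 point per array, with a bar at the mean of the spots not marked as outliers. Filled points are well above background, open points are not and crosses are outlier spots. Oas2, Oasl1, Oasl2, Oas1a, Oas1b and Oas3 are higher on the ED arrays than on the ES arrays, while Oas1d and Oas1f are lower in ED and closer to ES on the EDRL arrays.

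The family split by direction between unirradiated ED and ES cells. Of the 7 members other than Oas1d and Oas1f that could be tested, 6 were higher in ED by 3.13-fold to 14.2-fold (Oas1a, Oas1b, Oas2, Oas3, Oasl1 and Oasl2), and Oas1c was 1.92-fold lower, just short of the 2-fold limit. Oas1d and Oas1f were 16.3-fold and 7.09-fold lower in ED. A probe was called where its limma Benjamini-Hochberg adjusted p was under 0.05 and its log2 change over 1 in size, which 41.7% of the 28636 tested probes met in this comparison, 15.1% as higher and 26.6% as lower in ED. With arrays set to their median instead, the median log2 change over all probes was 0.46 rather than -0.19, and the share of called probes that were higher moved from 36.2% to 59.1%. Each of the 9 tested members cleared the background on the 6 arrays compared, and the median of their log2 changes was 1.91.

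Among the enzymes, Oas2 had the smallest spread. Its log2 signals were 1.94, 1.97 and 1.98 in ED and -1.18, -1.25 and -1.16 in ES. The ED arrays were all above the ES arrays, and Oas2 was higher in ED by 3.16 ± 0.21 (log2 change ± SE, n = 3 and 3, limma adjusted p = 5.76e-09). Oas3, the large synthetase known as a main source of 2-5A in infected human cells, was measured at -1.96, -2.41 and -3.03 in ED and at -3.85, -3.96 and -4.52 in ES. The groups did not overlap and the difference was 1.65 ± 0.34 (limma adjusted p = 0.000749). Oas1a, an active synthetase, was measured at -3.70, -3.27 and -3.44 in ED against -5.21, -5.30 and -5.62 in ES. It was higher in ED by 1.91 ± 0.39 (limma adjusted p = 0.000719).

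Oas1b, the gene whose full-length product confers resistance to flaviviruses in mice, was the most variable of these members in ED, at -1.14, -1.86 and -3.29, against -4.19, -3.97 and -4.34 in ES. Each ED array was above each ES array and the difference was 2.07 ± 0.41 (limma adjusted p = 0.000639). The 2 members with ubiquitin-like domains had the highest log2 changes of the 7, within their errors of that of Oas2. Oasl1 was measured at -1.26, -1.70 and -1.83 in ED and at -5.06, -4.62 and -4.98 in ES, a difference of 3.29 ± 0.38 (limma adjusted p = 8.57e-06). Oasl2 had 2 usable ED arrays, at -0.43 and -0.18, and the outlier spot of ED replicate 1 read -0.54. On the ES arrays it was measured at -4.12, -4.03 and -4.24. Oasl2 was higher in ED by 3.83 ± 0.71 (limma adjusted p = 0.000405). All ED arrays shared one scan time and all ES arrays another, so cell type and scan time cannot be told apart. With scan time as a random block Oas1b and Oas3 were no longer called, at 1.86 and 1.23. Oas1b was also not called by the methods' test after adjustment (2.07), nor Oas3 after quantile normalization (1.84).

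Oas1c was the one tested member that was lower in ED. It was measured at -0.08, -0.13 and 0.00 in ED and at 0.90, 0.81 and 0.91 in ES. The groups did not overlap and the change was -0.94 ± 0.36 (limma adjusted p = 0.0413), but its size was under the limit of 1. It passed that limit with another background correction (-1.01). Over the 31 alternatives tried, the change of Oas1c ran from -1.24 to -0.30, and it was called in 1 of them. Oas3 at 1.65 was the called member nearest to the limit. Oas1g, an active synthetase, was at the background in every group. Its means lay between -7.64 in ESRL and -7.11 in ED, it was well above background on 7 of the 18 arrays and never on all 3 arrays of a group, and it entered no test.

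**Figure D2:**
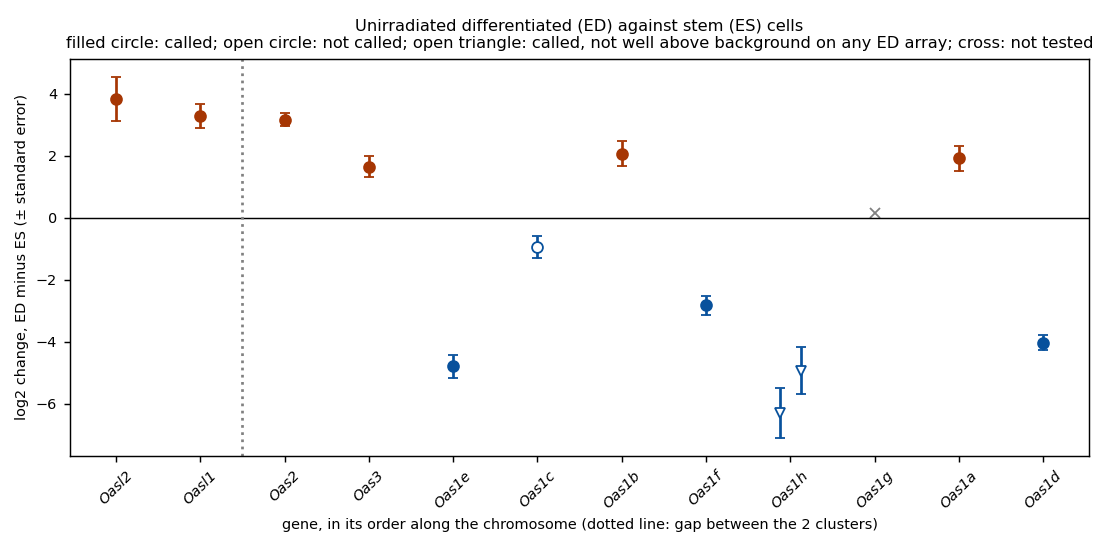
Log2 change between unirradiated ED and ES cells (y axis, ED minus ES) with its standard error for the family genes in their order along chromosome 5 (x axis), 1 symbol per probe. Circles above 0 are higher in ED, with Oasl2 highest at 3.83, and Oas1c, Oas1d, Oas1e, Oas1f and Oas1h lie below 0. Triangles are the probes of Oas1h, which were not well above background on any ED array. The cross is Oas1g, which was not tested and is shown with outlier spots kept.

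Oas1d and Oas1f were the members that were low in ED, and they had neighbors of the same direction. Oas1d was measured at -1.36 and -0.91 on the 2 usable ES arrays and at -5.33 and -5.0 on the 2 usable ED arrays. The outlier spots read -0.94 on ES replicate 1 and -3.76 on ED replicate 3. The groups did not overlap with or without these spots, and the change was -4.03 ± 0.24 without and -3.63 with them. Oas1f was measured at -2.69, -2.91 and -2.91 in ES and at -5.39, -6.01 and -5.59 in ED, a change of -2.83 ± 0.31. Over the alternatives tried, the change of Oas1d ran from -4.25 to -2.98 and that of Oas1f from -2.96 to -2.16.

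Outside the 10 members, Oas1e and Oas1h passed the filter of this comparison only through the ES arrays, where they were higher. Their values are therefore given as description without a test. Oas1e was measured at -3.04, -3.17 and -3.30 in ES and at -7.59, -8.76 and -7.57 in ED, where it was well above background on 1 of 3 arrays. The groups did not overlap. The fitted log2 change of -4.80 ± 0.37 was taken against signals that were mostly at background, so its size is uncertain. Oas1h had 2 probes, which were well above background on all ES arrays and on no ED array. Against the lowest signal well above background on each array, or the measured signal where that was higher, Oas1h was at least 17.5-fold higher in ES by one probe and at least 7.17-fold by the other. Along the chromosome, genes that were lower in ED therefore lay interleaved with genes that were higher, since Oas1b lies between Oas1c and Oas1f and Oas1a lies next to Oas1d among the family genes.

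The pathway around the family was described through gene lists. Among the partners of 2-5A signaling described here, none was called in any comparison. Abce1, known as an inhibitor in this pathway, was at 0.79 ± 0.04 in ED and 1.01 ± 0.13 in ES (SD, n = 3 and 3), a change of -0.22 ± 0.16 (SE, limma adjusted p = 0.272). Pde12, which degrades 2-5A, changed by 0.35 ± 0.32. Akap7, whose product holds a 2′-5′ phosphodiesterase domain, had no usable ES spot. Of the other interferon-stimulated genes, 21 of 30 tested were called higher in ED, 2 lower and 7 neither, with a median log2 change of 1.80 against -0.19 over all probes. The share called was 76.7%, against 41.7% of all probes, and it was 61.2% over all interferon lists together. The DNA sensor Ifi204 was higher by 7.49 ± 0.17 and the restriction factor gene Trim30a by 5.45 ± 0.19. Ifi44, an antiviral gene, is among the 21, but passed the filter only through the ED arrays, where it was higher, so it is given as description. It was well above background on 1 of 3 ES arrays, so the size of its fitted change (8.72 ± 0.90) is uncertain. Psmb8, an immunoproteasome subunit, and Trim25, a ligase of the RIG-I pathway, were lower by -1.36 and -1.02.

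Nucleic acid sensors and adaptors were higher in part, with 6 of 11 called higher in ED and 0 lower (54.5% called, against 41.7% of all probes). Cgas, the cytosolic DNA sensor, was higher by 3.35 ± 0.19, Ifih1, which encodes the RNA sensor MDA5, by 2.75 ± 0.18, and the RNA editing enzyme gene Adar by 1.71 ± 0.17. The 6 interferon regulatory factors, of which 66.7% were called, were divided. Irf2 (3.52 ± 0.19) and Irf7 (3.43 ± 0.23), the main amplifier of type I interferon, were higher in ED, and Irf8 (-4.40 ± 0.24) and Irf5 (-1.30 ± 0.13) were lower. Of 12 interferon receptor and signaling genes, Irf9 (1.80 ± 0.23) and the receptor gene Ifngr1 (1.26 ± 0.16) were higher, Ifnlr1 (-5.18 ± 0.25) and the feedback inhibitor Socs3 (-1.43 ± 0.18) were lower, and 8 were not called. The share called in this list, 33.3%, was below that over all probes. Of 8 tested interferon genes 0 were called higher and 4 lower (50% called). These 4 passed the filter only through the ES arrays, where they were higher, so the split is given as description. Ifnk, Ifng and Ifna5 had mean levels of -4.80, -6.04 and -5.95 in ES and were not well above background on any ED array. Ifnl2, at -5.70 in ES and -7.23 in ED, was well above background on 1 ED array. Ifnb1 was well above background on 1 ED array and on no ES array, and was not tested.

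**Figure D3:**
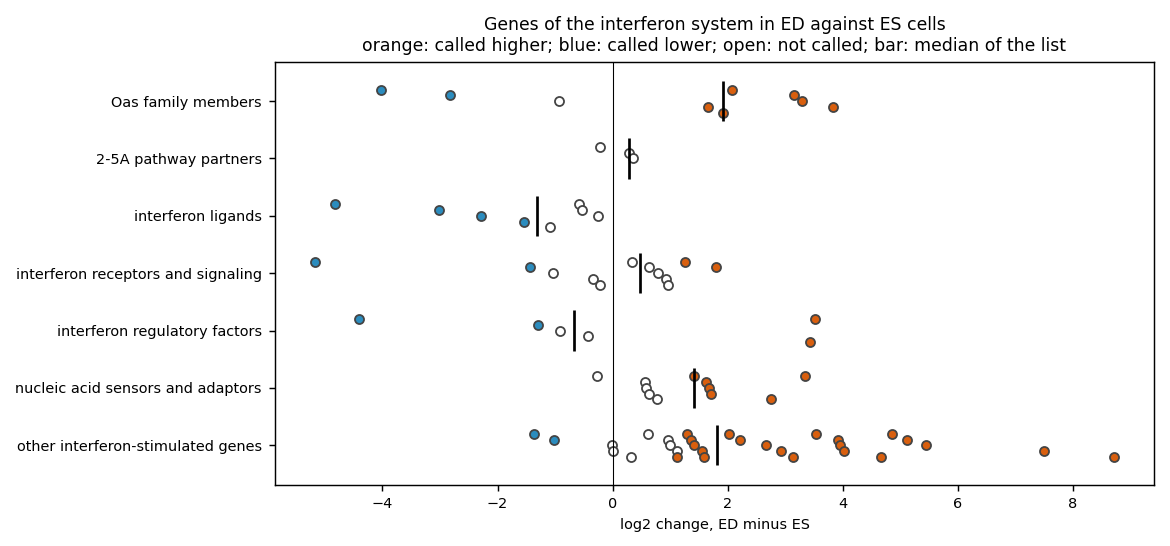
Log2 change between unirradiated ED and ES cells (x axis, ED minus ES) for the tested members and the genes of each interferon list (y axis), 1 point per gene, with a bar at the median of the list. Orange points are called higher in ED, blue points lower and open points neither. The medians are 1.91 for the members, 1.80 for other interferon-stimulated genes and -1.32 for the interferon genes. The interferon genes called lower passed the filter only through the ES arrays, and Ifi44, among the genes called higher, only through the ED arrays.

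In ES cells, IR was followed by no called member at either time. At 15 min, 0 of the 8 tested members were called by limma, and 0 had an unadjusted p under 0.05, where 0.463% of all 27875 tested probes were called. The member with the largest difference was Oasl2, at -3.05, -2.98 and -2.79 in ESRE against -4.12, -4.03 and -4.24 in ES. All ESRE arrays were above all ES arrays, and the change was 1.19 ± 0.63 (limma adjusted p = 0.63). The standard error comes from a spread shared by all 6 groups. Oasl2 was called at the same change of 1.19 when only ES and ESRE were fitted, by the methods' test, when replicates 2 and 3 of EDRE were left out (SE 0.26) and when replicate 1 of EDRE was left out. Oas1b was lower on every ESRE array, at -5.19, -4.98 and -4.89 against -4.19, -3.97 and -4.34, with a change of -0.85 ± 0.41 (limma adjusted p = 0.562). The other tested members changed by -0.22 to 0.24. Of the interferon lists, no gene was called at 15 min in ES cells.

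At 4 h, 0 of the 8 tested members were called in ES cells by limma, where 7.03% of all tested probes were (0.69% higher and 6.34% lower), and 3 had an unadjusted p under 0.05. Oas1f was measured at -1.29, -2.52 and -2.37 in ESRL against -2.69, -2.91 and -2.91 in ES. The groups did not overlap and the change was 0.78 ± 0.31 (limma adjusted p = 0.128). The highest value was that of ESRL replicate 1, the dimmer array, without which the change was 0.39, and without ESRL replicate 2 it was 1.01 and called. Oas3 was measured at -5.25, -4.82 and -4.78 in ESRL, below all ES arrays, with a change of -0.84 ± 0.34 (limma adjusted p = 0.135). Oasl1 was measured at -6.79, -4.94 and -5.76, the first of which was not well above background, and overlapped ES. Its change was -0.95 ± 0.38 (limma adjusted p = 0.143), -0.47 without ESRL replicate 1, and -1.39 and called without ESRL replicate 2. Oas2 changed by 0.36 ± 0.21, and Oas1a, Oas1b, Oas1c and Oasl2 by -0.69 to 0.71.

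Between the irradiated ES groups, ESRL against ESRE, 0 of 8 members were called by limma (4.80% of all probes) and 2 had an unadjusted p under 0.05. Oas1f changed by 0.96 ± 0.30 (limma adjusted p = 0.0791) and Oasl1 by -0.85 ± 0.38 (limma adjusted p = 0.213). Both were called without ESRL replicate 2, at 1.18 and -1.30. Of the comparisons made, only in this one did arrays of both groups share a scan time, namely ESRE replicates 1 and 2 and ESRL replicates 2 and 3. Within that scan time Oas1f differed by 0.51, Oas3 by -0.18 and Oasl1 by -0.12. No irradiated group shared a scan time with its control, so IR and scan time cannot be told apart in the comparisons with controls. Oas1d could not be tested in irradiated ES cells, because its spots were marked as outliers on all 6 arrays. As read, they lay between -0.94 and -0.27, near the ES spots. Oas1e and both probes of Oas1h were not called in irradiated ES cells, with changes of -0.50 to 0.31 against ES.

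**Figure D4:**
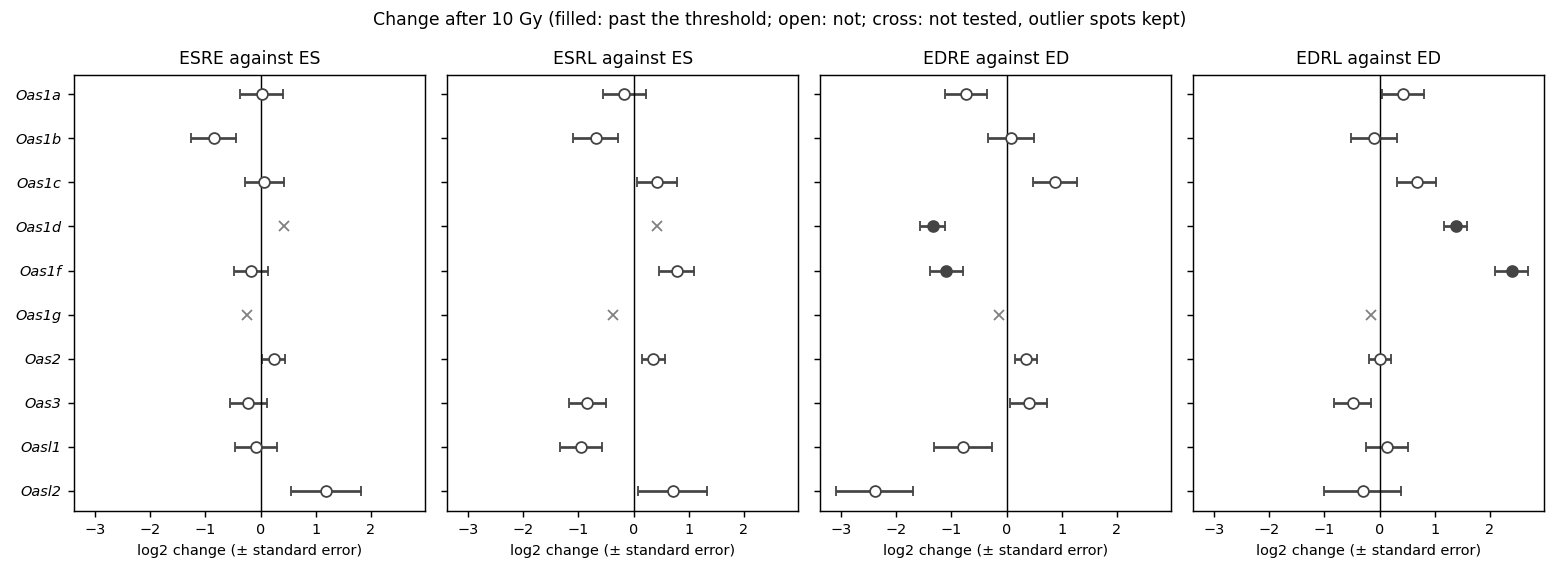
Log2 change after 10 Gy (x axis) with its standard error for the 10 members (y axis) in ES cells at 15 min and 4 h and in ED cells at 15 min and 4 h, 1 panel per comparison. Filled points passed the threshold, which Oas1d and Oas1f did in ED cells, for which the family was chosen, and crosses show genes that were not tested, with outlier spots kept. Oasl2 has the widest errors, 0.63 in ES cells and 0.70 in ED cells.

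In ED cells 4 h after IR, Oas1f and Oas1d were higher than in unirradiated ED cells, the change for which the family was chosen. Oas1f was measured at -3.19, -3.27 and -3.34 in EDRL against -5.39, -6.01 and -5.59 in ED. The EDRL arrays were all above the ED arrays, by 2.40 ± 0.30 or 5.26-fold, and all of these spots were well above background. Oas1d was measured at -3.88, -3.77 and -3.70 in EDRL, above the 2 usable ED arrays, and the change was 1.38 ± 0.21. The outlier spot of ED replicate 3, at -3.76, lay within the EDRL values, and with outlier spots kept the change was 0.91 and did not pass the threshold. These were 2 of 9 members past the threshold, where 1.61% of all probes were, 1.38% as higher. Neither gene passed it with scan time as a random block, at 1.38 for Oas1d and 1.93 for Oas1f, nor with normexp background correction, at 1.10 and 1.76. Oas1d also fell short of it without replicate 1 or 2 of ED or any single EDRL array. Of the EDRE arrays, only replicate 1 shared a scan time with the EDRL arrays. On it Oas1f read -6.32, below the EDRL arrays, and the outlier spot of Oas1d read -3.75, within the EDRL values. EDRE and EDRL were not compared by a test.

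No other member passed the threshold at 4 h. Oas1c, at 0.65, 0.56 and 0.58, was above all ED arrays by 0.67 ± 0.36. Oas2, Oas1a, Oas1b, Oas3, Oasl1 and Oasl2 changed by -0.49 to 0.43. Of the genes outside the members, Oas1e was measured at -4.82, -4.86 and -4.67 in EDRL, well above background on all 3 arrays and above all ED arrays. Since it was well above background on 1 of 3 ED arrays, the size of its fitted change (3.19 ± 0.37) is uncertain. Oas1h was not well above background on any EDRL array. The mean of Oas1f in EDRL (-3.27) lay below that in ES (-2.84), and that of Oas1e (-4.78) and Oas1d (-3.78) lay below their ES means of -3.17 and -1.13. The summed signal of the 9 pluripotency markers overlapped between the groups, at 4.01 to 4.46 in EDRL and 4.13 to 4.53 in ED (log2). In ED this sum was mostly signal of Klf4 and Sox2, so it says little of the other markers. The summed signal of 6 oocyte and germ cell markers was -2.65 to -2.24 in EDRL and -2.87 to -2.67 in ED, and its part in the values of Oas1d, which is known from oocytes, was not tested. The sum of the 4 endothelial markers was higher, at -1.93 to -1.38 in EDRL against -3.65 to -3.52 in ED. Of its 3 tested genes, Tek, a receptor kinase of endothelial cells, was called at 2.58 ± 0.21 (limma adjusted p = 5.95e-06), while Cdh5 (-0.40 ± 0.46) and Kdr (-0.02 ± 0.40) were not, and Pecam1 was well above background on 1 of 3 arrays in each group. The sum of the 5 endoderm markers was lower, at -0.20 to -0.04 against 0.17 to 0.23. The part of these markers in the change of Oas1f and Oas1d was not tested.

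In ED cells 15 min after IR, Oas1d and Oas1f were lower than in unirradiated ED cells, but the arrays behind this were the dim ones. Oas1f was measured at -6.32, -6.59 and -7.37 in EDRE, of which the last pair was not well above background. The change was -1.09 ± 0.30, and replicate 1 alone differed from the ED mean by -0.65. Oas1f was the member just past the limit and Oas1c, at 0.88, the member just short of it. Oas1d was measured at -6.59 and -6.42 on replicates 2 and 3, both not well above background, a change of -1.34 ± 0.23 from the 2 usable ED arrays. The spot of replicate 1 was an outlier and read -3.75, which was 0.95 above the ED mean with outlier spots kept. These were 2 of 9 members past the threshold, where 4.85% of all probes were, 2.10% as higher and 2.74% as lower.

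On replicate 2 of EDRE, 13282 probes (35.7%) carried one and the same lowest signal of 9.11, and 6 of the 13 family probes were among them, Oas1d, Oas1f, Oas1g, Oas1e and both of Oas1h. The lowest signals that counted as well above background were -4.95 on replicate 2 and -5.52 on replicate 3, against -8.39 on replicate 1. The ED levels of Oas1f, from -6.01 to -5.39, all lay below the first of these, and so did the usable ED levels of Oas1d. Replicate 2 therefore cannot show whether either gene was lower than in ED. On replicate 3 the limit lay below the usable ED levels of Oas1d. With the limits of both dim arrays averaged (-5.24), the usable ED mean of Oas1d (-5.16) was 1.05-fold above them. Since the limit of replicate 2 lay above the ED levels, this is not a lower bound on the change. The count of 2 members became 0 without either or both of the dim arrays or without replicate 1 or 2 of ED, 1 without replicate 3 of ED or any single array of ES, ESRE or EDRL, and 5 without replicate 1 of EDRE. With normexp background correction, which moved the median of all probes from 0.03 to 0.59, both genes turned, to 1.56 for Oas1d and 0.92 for Oas1f.

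Oasl2 was the other member whose dim arrays stood apart. It was measured at -0.58 on replicate 1 of EDRE, near the ED arrays, and at -3.94 and -3.55 on replicates 2 and 3, with all 3 spots well above background. The change was -2.39 ± 0.70, it did not pass the threshold, and without the dim arrays it was -0.28. Oas1a was split less, at -3.41 on replicate 1 against -5.19 and -4.00, with a change of -0.73 ± 0.38 and of 0.06 without the dim arrays. Oas1c moved the other way, at 0.09 on replicate 1 and 1.52 on replicate 2, with the spot of replicate 3 an outlier, and its change was 0.88 ± 0.40 and 0.16 without the dim arrays. Oas2, Oas3 and Oas1b changed by 0.35, 0.40 and 0.08, and Oasl1 had 1 usable EDRE array at -2.38.

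**Figure D5:**
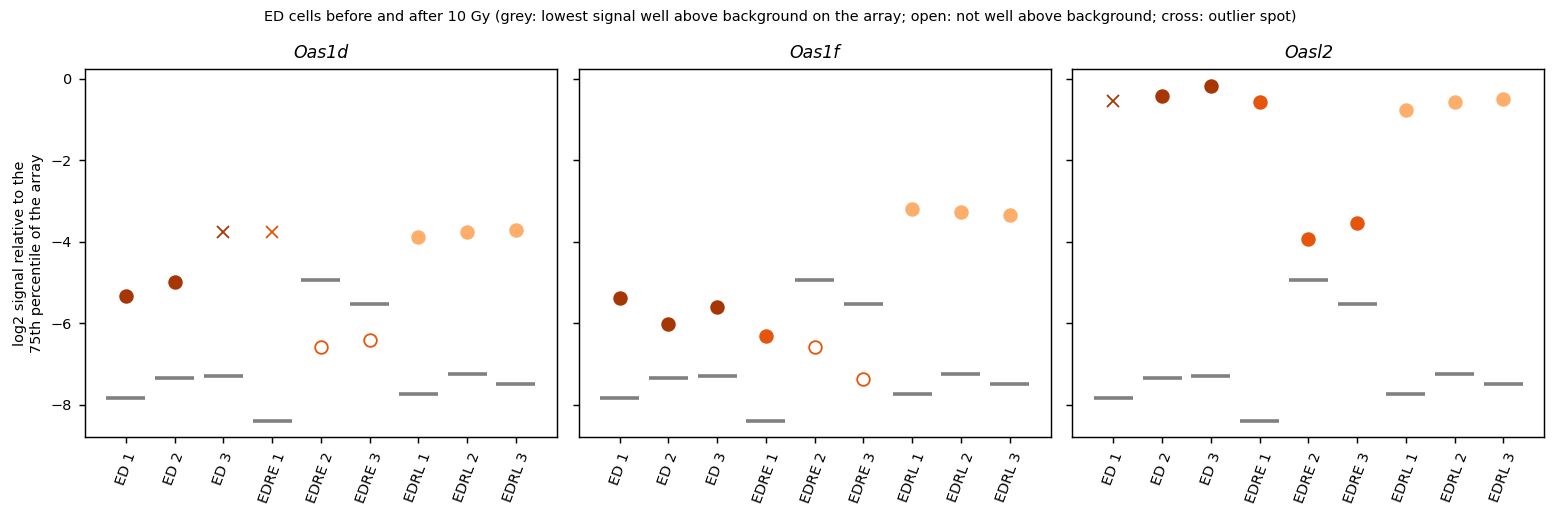
Log2 signal above the array's 75th percentile signal (y axis) of Oas1d, Oas1f and Oasl2 on each ED, EDRE and EDRL array (x axis), with a gray line at the lowest signal that was well above background on that array. Open points are not well above background and crosses are outlier spots. The gray line is at -4.95 and -5.52 on EDRE replicates 2 and 3, and Oasl2 is at -3.94 and -3.55 there against -0.58 on replicate 1.

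Ordered by mean level, Oas1f ran from ESRL (-2.06) through ES (-2.84), ESRE (-3.02), EDRL (-3.27) and ED (-5.67) to EDRE (-6.76), and of these neighbors ES and ESRE overlapped. Oas1d ran from ES (-1.13) through EDRL (-3.78) and ED (-5.16) to EDRE (-6.50) with no overlap between neighbors over its usable spots. Its outlier spots on ED replicate 3 (-3.76) and EDRE replicate 1 (-3.75) lay within the EDRL values. Neither usable Oas1d spot of EDRE was well above background, and Oas1f was well above background on 1 of 3 EDRE arrays. Oas2 ran from EDRE (2.32) through ED and EDRL (both 1.96) to ESRL (-0.83), ESRE (-0.96) and ES (-1.20). Of these neighbors EDRE overlapped ED, ED overlapped EDRL, and ESRL overlapped ESRE. In Oas1a, Oas1b, Oas2, Oas3 and Oasl1 all 3 ED-derived groups had higher means than all 3 ES-derived groups, and in Oasl2 the EDRE and ESRE arrays overlapped. In Oas1f and Oas1e the means of all 3 ES-derived groups were higher than those of all 3 ED-derived groups, and in Oas1c EDRE overlapped ES and EDRL.

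The profiles most like that of Oas1d, by the root mean square difference after centering on the mean over its 9 usable arrays, were those of Hs3st6 (0.306), the transcript uc008mfo (0.404), Cpz (0.421), Kcp (0.434) and Slc13a4 (0.438) among 18277 candidate probes. For Oas1f, over 18 arrays, they were AK042183 (0.495), the probe listed as NM_007955 (0.515), Dusp15 (0.575), Plch2 (0.579) and Rab42 (0.632). No family gene was among them. All these arrays share the same groups, and likeness over them is a description of level only.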

How the data were processed

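Gene expression was measured in 18 samples on one-color Agilent arrays. As the authors deposited them, intensity values are processed signals of Agilent Feature Extraction, from which background was subtracted. No normalization between arrays had been applied. The submitters' processing notes give version 9.1 and the file headers 10.7.3.1, with array annotation on mm9. The deposited matrix of log2 values, which as tested on the files is the log2 signal minus about the array median, was an alternative. Control spots were removed, as were spots that carried an outlier mark. Log2 signals were set to the 75th percentile of each array.

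One model with a mean for each of the 6 groups was fitted by limma 3.58.1 (R 4.3.3) to the 18 arrays. A probe was tested if it cleared the background on every array of either group compared, and p-values were Benjamini-Hochberg adjusted over those probes. The procedure was tested on simulated data. Group labels came from the sample descriptions. The number of arrays limits the precision. Genes were named through RefSeq for 22216 of 37246 probes, and promoters come from the RefSeq GRCm38.p6 table. Of the gene lists, Sting1, Herc6 and Cd68 were not found on the array.

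The members, the lists and the tests were chosen with earlier results of these data known. Genes named were all members, Oas1e, Oas1h, the partners of 2-5A, up to 3 called genes with the largest change per interferon list and comparison, and the 5 profiles nearest to Oas1d and to Oas1f. Some genes that this rule names are not reported here. Psmb8, Trim25 and Ifnb1 were named after their values were seen. Alternatives changed the background correction, scaling, filter, outlier spots, block, samples, values and test, and left out each array. Normexp used the median signal, since the files read here hold no mean signal, and this and the value of EDRE replicate 1 alone were added after seeing the data. Same-numbered arrays of compared groups correlated between -0.37 and 0.21 over probes, so replicate numbers were not taken as pairs.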

Additional observations from a re-analysis of the deposited data

Results flagged for a closer look

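For Oasl2 the usable irradiated arrays lay above the control mean in ES cells and below it in ED cells at both times, and none of these changes was called. At 15 min all 3 ESRE arrays were above the ES mean, by 1.19 on average, and all 3 EDRE arrays were below the ED mean, with a mean change of -2.38, so that the change in ED cells minus that in ES cells was -3.58. The 2 dim EDRE arrays carry most of the ED change, and replicate 1 of EDRE alone differed by -0.28. At 4 h the ESRL arrays were above the ES mean by 0.71 and the EDRL arrays differed from the ED mean by -0.30, a difference of -1.01, with ESRL replicate 1, at -4.12, level with the ES arrays. Oasl1 at 4 h was below the ES mean on all 3 ESRL arrays (-0.94) and above the ED mean on all 3 EDRL arrays (0.14), a difference of 1.08, and one of the ESRL spots was not well above background. None of these differences between cell types was tested.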

How the results depend on the processing

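Of the changes of members called in ED against ES, none turned under the alternatives tried, and the count of members past the threshold was 8, or 6 to 9 with an alternative. The count of members called in ESRE against ES was 0 and became 1 (Oasl2) when only the groups compared were fitted, by the methods' t-test before and after adjustment, and without EDRE replicates 2 and 3. With single arrays left out it ran from 0 to 1 for ESRE, 0 to 2 for ESRL and 0 to 2 for ESRL against ESRE. For EDRE against ED, 2 members passed the threshold, 1 with the array median, with probes well above background in both groups and with the matrix values, 5 with quantile normalization (4 of them higher, where the median of all probes moved from 0.03 to 0.71), and 0 with scan time as a random block, with only the groups compared, by the methods' t-test after adjustment and without EDRE replicates 2 and 3. Single arrays left out gave 0 to 5, with 5 without EDRE replicate 1 and 0 without replicate 2 or 3 of EDRE or replicate 1 or 2 of ED. Normexp turned Oas1d to 1.56 and Oas1f to 0.92 in this comparison, and EDRE replicate 1 alone turned Oas1d to 0.95. For EDRL against ED, 2 members passed, 1 with quantile normalization, with outlier spots kept, and with the matrix values, and 0 with normexp and with scan time as a random block. Single arrays left out gave 1 to 2, with 1 without replicate 1 or 2 of ED or any replicate of EDRL, when Oas1d was the member lost. The cause of these changes was not tested.

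The replicate number as a block moved the EDRL count from 2 to 1 and left the counts at 8 for ED against ES, 2 for EDRE and 0 for each ES comparison. Of 36 arrays matched to the arrays of the other group, 13 correlated best with their own number. With 49.5% and 55.5% of probes well above background, the dim arrays limit what can be said of low members.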

Other observations

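After IR, counts over the 5 interferon lists are given beside the share called over all probes. In ES cells at 4 h, limma called 3 of 65 tested genes of these lists (4.62%, against 7.03% of all probes), all lower than in ES. They were the interferon gene Ifna4 (-1.38 ± 0.29, adjusted p = 0.0102), which was well above background on 2 of 3 ESRL arrays, the DNA sensor Ifi204 (-1.26 ± 0.17, adjusted p = 0.00147) and the nuclear body gene Sp100 (-1.94 ± 0.40, adjusted p = 0.00964), which was well above background on 1 of 3 ESRL arrays. Against ESRE, 2 of 61 were called (3.28%, against 4.80%). Ifna4 was lower in ESRL by a log2 change of -1.46 ± 0.29. It passed the filter only through the ESRE arrays, where it was higher, so this is given as description. Ifi35 was higher by 1.27 ± 0.24 on 1 usable ESRL array.

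In ED cells at 4 h 1 of 69 tested genes was called (1.45%, against 1.61% of all probes), namely Tap1, a peptide transporter of antigen presentation, at 4.51 ± 0.05 in EDRL and 3.02 ± 0.21 in ED (SD, n = 3 and 3), a change of 1.48 ± 0.19 (SE, limma adjusted p = 0.000618). Isg15 and Ifit1, which are standard interferon-stimulated genes and were named after their values were seen, changed by -0.03 ± 0.17 and 0.20 ± 0.31. At 15 min 6 of 68 were called (8.82%, against 4.85%), of which Mavs (1.06), Eif2ak2 (1.00), Trim25 (1.15) and Cmpk2 (1.05) were higher and Tlr7 (-4.25, against 1 usable ED array) and Ifi35 (-2.12) lower, in a group in which 2 of 3 arrays were dim.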
